A study of Mus musculus with 26 samples.

Results

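Pregranulosa lineage cells of the fetal mouse ovary were followed from embryonic day E14.5 to E18.5. A cell belonged to the lineage if it came from the Negative sort gate of these stages, had under 100 CPM of Upk3b, under 200 CPM of Tyrobp and under 100 CPM of Asz1, and carried at least as many Kitl, Rspo1 and Wnt4 transcripts as Tcf21, Pdgfra and Dcn transcripts, both summed in CPM. CPM is UMIs (unique molecular identifiers, which count captured RNA molecules) scaled to a total of 1e6 UMIs for the cell. Of 1881 cells in the series, 404 were Negative-gate cells of these stages, 294 passed the 3 limits, and 239 of those formed the lineage. The other 55 held more Tcf21, Pdgfra and Dcn and are called stromal below. The same limits applied to Negative-gate cells of E11.5 to E13.5 gave 82 cells, called earlier supporting cells.

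All 26 libraries, numbered 1 to 26, came from female gonads of BVSC mice, which carry the germ cell reporters Blimp1-mVenus and Stella-ECFP. Each stage is a pool of gonads from several embryos. After trypsin digestion and a fluorescence sort, single cells were picked by mouth for STRT-seq, which counts the 3′ ends of polyadenylated RNA. Every group described here shares this transgenic background and this handling. The groups are the pregranulosa cells of E14.5, E15.5, E16.5, E17.5 and E18.5 (95, 55, 50, 24 and 15 cells) and the earlier supporting cells of E11.5, E12.5 and E13.5. Stromal cells of E14.5 to E18.5 form the last group, and the library pools made from them end at E17.5. The Negative gate removes reporter-positive germ cells but selects no somatic type. No label ties a library to its own litter, so the p-values below rest on library-to-library spread alone, part of which may be technical.

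Pregranulosa cells are the somatic supporting cells of the ovary. They surround germ cells during fetal life and become the granulosa cells of follicles. KITL, the product of Kitl, is the ligand of the KIT receptor on germ cells, and WNT4 and RSPO1 act through beta-catenin signalling to maintain the ovarian fate of the supporting lineage. The lineage leaves the cell cycle as it differentiates, and cells from the surface epithelium, marked by LGR5, join it in the ovarian cortex.

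The limits on Kitl, Rspo1, Wnt4, Tcf21, Pdgfra and Dcn chose the cells, so these genes are described with no test. The median summed level of Kitl, Rspo1 and Wnt4 was 1797 CPM in pregranulosa cells and 171 CPM in stromal cells, and that of Tcf21, Pdgfra and Dcn was 90.1 CPM in pregranulosa cells and 2296 CPM in stromal cells. The pregranulosa cell nearest the limit had 930.3 CPM of Kitl, Rspo1 and Wnt4 and 872 CPM of Tcf21, Pdgfra and Dcn, and the stromal cell nearest it had 661 and 672 CPM. Only 2 pregranulosa and 8 stromal cells lay within 2-fold of it. The label was checked on the markers that the rule did not use. In the 11 pregranulosa libraries Cst12 spanned 378 to 1307 CPM, Lbx2 265 to 830 CPM and Hsd3b1 18.9 to 808 CPM. In the 6 stromal libraries Cst12 spanned 21.3 to 222 CPM, Lbx2 2.85 to 541 CPM and Hsd3b1 1.12 to 561 CPM. Cst12 thus separated the classes without overlap, while Lbx2 and Hsd3b1 did not. Foxl2, the best known regulator of this lineage, was not analysed here, because the table read here covers chromosomes 1 to 7, 10 and X and part of 8. Hsd3b1 has close paralogs beside it, so its counts carry some uncertainty.

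The pregranulosa cells held a median of 191831 deposited UMIs (15801 to 667401) and 7303 detected genes. Counts were summed per library, which gave 3 pools at E14.5 and 2 pools at each later stage, of 5 to 36 cells and 465806 to 4007510 UMIs. Libraries 4 and 13 of E14.5 carry the same deposited replicate name, R1, but entered the tests as separate pools. A single pool, library 6 at E18.5, had 5 cells. Among markers of other types, the 12 stromal markers summed to 294 to 1459 CPM in pregranulosa pools and 6763 to 9792 CPM in stromal pools. Some markers are genes of the rule: Tcf21, Pdgfra and Dcn for stroma, Tyrobp for macrophages, Upk3b for surface epithelium and Asz1 for germ cells. Part of these marker sums was thus fixed by the choice of cells. The 9 macrophage and immune markers stayed at or under 75.8 CPM in every pregranulosa pool, and the 8 endothelial markers at or under 278 CPM. The 5 erythroid markers, globin genes and Alas2, summed to 21.96 to 120.1 CPM at E14.5, 102 and 113 CPM at E15.5, 1396 and 52.3 CPM at E16.5, 26.6 and 380 CPM at E17.5, and 880 and 742 CPM at E18.5. Both E18.5 pools lay above all E14.5 pools, and the part of this signal in the stage differences below was not tested. In the earlier pools the macrophage markers reached 318 CPM and the erythroid markers 2128 CPM, both in library 2 of E11.5. The 2 steroidogenic interstitial markers in the table, Star and Hsd3b1, summed to 83.5 to 848 CPM in pregranulosa pools, 2.24 to 564 CPM in stromal pools and 0 to 441 CPM in earlier pools. Hsd3b1 is also on the list of pregranulosa markers. The 3 surface epithelium markers reached 168 to 593 CPM in pregranulosa pools, 11.4 to 178 CPM in stromal pools and 153.8 to 627 CPM in the earlier pools.

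Germ cell transcripts moved with stage. The 11 germ markers summed to a median of 196, 231 and 205 CPM per cell at E14.5, E15.5 and E16.5, and to 1447 and 1190 CPM at E17.5 and E18.5, where no cell had under 593 CPM. Library make-up changed at the same point. Libraries 13, 15, 17, 19, 21 and 23, of E14.5 to E16.5, held Negative-gate cells alone and had medians of 20.7 to 333 CPM. Library 4 of E14.5 and all 4 libraries of E17.5 and E18.5 also held reporter-positive cells, and their pregranulosa medians were 456 to 1563 CPM, or 5.46% to 16.2% of the median of BVSC-gate cells in the same library. The part of germ cell RNA in each result below was not tested, so the level in BVSC-gate cells is given beside the genes it touches.

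**Figure D1:**
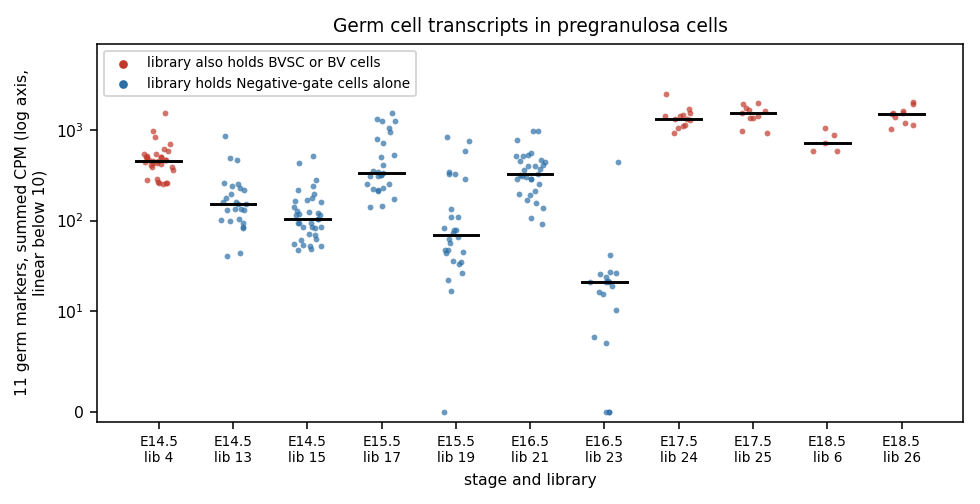
Summed CPM of 11 germ cell markers in each pregranulosa cell (points), by stage and library, with the library median as a bar and a logarithmic vertical axis that is linear below 10. Cells of libraries 24, 25, 6 and 26, which also hold reporter-positive cells, all lie at or above 593 CPM.

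The first comparison asked how the lineage changed from E14.5 to E18.5. Of 6586 genes tested with edgeR's quasi-likelihood test for a linear slope over days, 23 rose and 12 fell at a Benjamini-Hochberg adjusted p under 0.05 (0.349% and 0.182% of genes, 0.531% in all). The clearest riser was the marker Cst12 and the clearest faller was Cited2. Of the 23 risers, 10 were higher in BVSC-gate cells of E17.5 and E18.5 than in pregranulosa cells of those stages, and 13 were not. Of the 12 fallers, 6 were higher in BVSC-gate cells and 6 were not. The share among all genes tested was not counted. Without library 13 or without library 15, both of E14.5, only Cst12 and Cited2 were called, and without all E14.5 pools no gene was (471 genes at an unadjusted p under 0.05, edgeR). Within the 6 libraries of Negative-gate cells alone 5 genes were called, 2 of them among the 35, and within the 5 libraries that also held reporter-positive cells none was (100 genes at an unadjusted p under 0.05, edgeR; DESeq2, run on all pools, called 261). With pools merged by deposited replicate name, which joins libraries 4 and 13, 14 genes were called, 13 of them among the 35. In that fit Socs2 (adjusted p = 0.0577), Cst8 (0.0625), Hmga2 (0.0879) and Cyr61 (0.0894) did not pass (edgeR). Sycp1, Mael and B230312C02Rik did not pass there either. Slopes are given as log2 change per day with the standard error.

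Cst12, a member of the cystatin family of cysteine protease inhibitors (2:148789361-148793546 on the plus strand, GRCm38), was higher at each successive stage. Its level was 378, 452 and 629 CPM in libraries 4, 13 and 15 of E14.5, 726 and 803 CPM at E15.5, 830.2 and 958 CPM at E16.5, 1074 and 1131 CPM at E17.5, and 1307 and 1284 CPM at E18.5. Pools of each stage lay above all pools of the stage before, with no overlap. The slope was 0.38 ± 0.05 per day (adjusted p = 0.00126, edgeR). Between the end stages Cst12 was higher at E18.5 than at E14.5 by 1.499 ± 0.229 log2 units (adjusted p = 0.00969, edgeR). Pregranulosa cells of E17.5 and E18.5 had 1179 CPM of Cst12, against 36.0 CPM in BVSC-gate cells of those stages. Within the 6 libraries of Negative-gate cells alone, which span E14.5 to E16.5, the slope was 0.42 ± 0.10 per day (adjusted p = 0.175, edgeR).

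Cst8, another cystatin gene, lies close to Cst12 on the same strand (2:148798785-148805595) and moved the other way. It had 1237, 893 and 1144 CPM at E14.5, 891 and 805 CPM at E15.5, 891 and 603 CPM at E16.5, 522 and 795 CPM at E17.5, and 356 and 391 CPM at E18.5. All E18.5 pools lay below all earlier pools, and the middle stages overlapped. The slope was -0.31 ± 0.06 per day (adjusted p = 0.0315, edgeR), and the E18.5 level was below the E14.5 level by 1.48 log2 units (log2 fold change -1.48 ± 0.29, adjusted p = 0.031, edgeR). Without E18.5 the slope was -0.20 ± 0.08 per day with an adjusted p of 0.259 (edgeR).

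The promoter windows of this pair, which start 9474 bases apart, are shown because the neighbouring genes had opposite slopes. Each window of 300 bases (RefSeq, GRCm38.p6, plus strand) starts before the gene's RefSeq start and runs past it, at chr2:148789115-148789414 for Cst12 and chr2:148798589-148798888 for Cst8. Capitals mark the core sites searched on both strands.
Cst12: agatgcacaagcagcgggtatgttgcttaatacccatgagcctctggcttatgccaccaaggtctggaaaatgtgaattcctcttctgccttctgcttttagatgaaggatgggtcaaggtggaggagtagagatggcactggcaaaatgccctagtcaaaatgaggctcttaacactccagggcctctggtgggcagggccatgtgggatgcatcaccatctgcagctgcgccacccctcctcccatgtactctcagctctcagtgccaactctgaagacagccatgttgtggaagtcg
Cst8: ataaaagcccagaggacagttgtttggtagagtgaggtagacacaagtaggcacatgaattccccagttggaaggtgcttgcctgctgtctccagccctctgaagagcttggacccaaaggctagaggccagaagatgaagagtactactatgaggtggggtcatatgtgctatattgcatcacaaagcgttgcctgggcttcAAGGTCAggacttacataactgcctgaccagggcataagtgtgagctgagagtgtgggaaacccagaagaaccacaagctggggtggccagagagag
The NR5A core AAGGTCA, the site of SF1 and LRH1, occurred 1 time, in the Cst8 window at 2:148798792-148798798. This is 47 bases before the RefSeq start of Cst8 (2:148798839), but inside the GENCODE gene span given above, which begins further upstream. It occurs in 4.72% of all 32851 mouse promoter windows of this length. The forkhead core TAAACA (13.4% of all windows) and the TCF/LEF core CTTTGA (16%) were in neither window. These are matches of letters and are not evidence of binding.

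Besides Cst12, risers that were higher in pregranulosa than in BVSC-gate cells included Crygb, Pcp4l1, Socs2 and Cav1. Pcp4l1 had 177, 237 and 188 CPM at E14.5, 278 and 362 CPM at E15.5, 678 and 505 CPM at E16.5, 509 and 1008 CPM at E17.5, and 468 and 824 CPM at E18.5. Its slope was 0.53 ± 0.09 per day (adjusted p = 0.0103, edgeR), and 0.80 ± 0.12 per day (adjusted p = 0.03, edgeR) within libraries of Negative-gate cells alone, where it stayed called. Crygb, which encodes a gamma crystallin best known from the lens, had 601 and 283 CPM at E18.5 and 83.5, 99.3 and 80.3 CPM at E14.5. Every E17.5 and E18.5 pool of Crygb exceeded every earlier pool, and the slope was 0.65 ± 0.11 per day (adjusted p = 0.0103, edgeR). Its level within E14.5 to E16.5 was 59.8 to 156 CPM, and the slope in Negative-gate libraries alone was 0.18 ± 0.26 per day (adjusted p = 0.921, edgeR). Socs2, a feedback inhibitor of cytokine receptors, rose by 0.50 ± 0.10 per day (adjusted p = 0.0196, edgeR), with 319.9 and 311 CPM at E18.5 and 74.7 to 96.1 CPM at E14.5. Cav1, the caveolae coat protein gene, rose by 0.50 ± 0.10 per day (adjusted p = 0.0315, edgeR), with 324 and 213 CPM at E18.5 and 48.9 to 90.03 CPM at E14.5. The germ cell levels of these 4 genes at E17.5 and E18.5 were 15.49 CPM for Pcp4l1, 14.2 CPM for Crygb, 67.3 CPM for Socs2 and 4.07 CPM for Cav1.

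Germ cell genes made up another group of risers. Figla, an oocyte transcription factor, had 215 and 424 CPM at E18.5 and 0.25 to 6.84 CPM at E14.5, and rose by 1.74 ± 0.32 per day (adjusted p = 0.0133, edgeR). Sycp1, a synaptonemal complex gene, had 228 and 378 CPM at E18.5 and 3.74 to 48.9 CPM at E14.5, and rose by 1.10 ± 0.24 per day (adjusted p = 0.0367, edgeR). Mael, a piRNA pathway gene, and the noncoding B230312C02Rik rose by 0.83 ± 0.17 and 1.45 ± 0.30 per day (adjusted p = 0.0315 for both, edgeR). At E17.5 and E18.5 Figla stood at 264 CPM in pregranulosa cells and 1021 CPM in BVSC-gate cells, Sycp1 at 419 CPM in pregranulosa cells and 2443 CPM in BVSC-gate cells, Mael at 255 CPM in pregranulosa cells and 1300.1 CPM in BVSC-gate cells, and B230312C02Rik at 71.0 CPM in pregranulosa cells and 299.6 CPM in BVSC-gate cells. Eea1, an endosome tether gene, rose by 0.42 ± 0.10 per day (adjusted p = 0.0472, edgeR) and had 335 CPM in pregranulosa cells, against 798 CPM in BVSC-gate cells. All 9 germ markers tested had positive slopes, with a median of 0.55 per day beside -0.01 over all genes, and 2 of them, Sycp1 and Mael, were called.

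**Figure D2:**
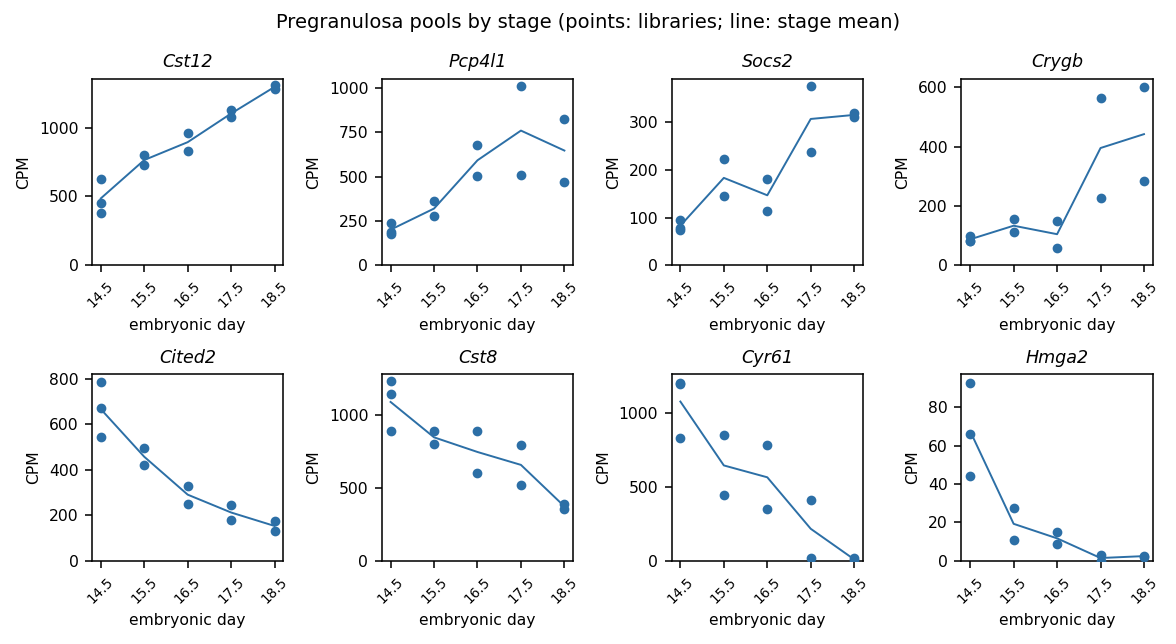
CPM in each pregranulosa pool (points, 1 per library) against embryonic day, with the stage mean as a line, for 4 genes that rose and 4 that fell. Cst12 climbs at each stage to 1307 and 1284 CPM at E18.5, and Cited2 drops to 131 and 175 CPM.

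Cited2, a transcriptional coregulator that acts early in gonad formation, was lower at each successive stage. Its level was 788, 544 and 670.0 CPM at E14.5, 421 and 494 CPM at E15.5, 252 and 330.0 CPM at E16.5, 246 and 179 CPM at E17.5, and 131 and 175 CPM at E18.5. No pool overlapped a pool of another stage. The slope was -0.51 ± 0.07 per day (adjusted p = 0.000764, edgeR), and the difference between E18.5 and E14.5 was -2.05 ± 0.33 log2 units (adjusted p = 0.0132, edgeR). BVSC-gate cells of E17.5 and E18.5 had 35.2 CPM. The slope was -0.47 ± 0.12 per day in libraries of Negative-gate cells alone (adjusted p = 0.175, edgeR).

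The other named fallers were at 22.9 CPM or less in both E18.5 pools. Cyr61, a secreted matricellular protein gene and a target of YAP, had 2.15 and 16.2 CPM at E18.5 and 836 to 1205 CPM at E14.5, with 18.99 and 415 CPM at E17.5. Its slope was -1.07 ± 0.24 per day (adjusted p = 0.0472, edgeR), and its difference between E18.5 and E14.5 was -6.63 ± 1.02 log2 units (adjusted p = 0.00969, edgeR). Hmga2, a chromatin architectural gene of immature cells, had 2.15 and 2.69 CPM at E18.5 and 44.1 to 92.5 CPM at E14.5 (slope -1.29 ± 0.27 per day, adjusted p = 0.0337, edgeR). Nppc, which encodes C-type natriuretic peptide, and Akr1b7, an aldose reductase gene, had no UMI in the 4 pools of E17.5 and E18.5. Against a floor of 3 UMIs over those 4 pools, Nppc was at least 60.5-fold lower and Akr1b7 at least 58.1-fold lower there than in the E14.5 pools. Ereg, an EGF family ligand gene (slope -1.34 ± 0.31 per day, adjusted p = 0.0497, edgeR), Plin1, a lipid droplet coat gene (-1.93 ± 0.42, adjusted p = 0.0408), and Csnk1g2, a casein kinase gene (-0.74 ± 0.16, adjusted p = 0.0408), completed the list. Csnk1g2 stood at 108 CPM in BVSC-gate cells.

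At the end stages alone, 11 genes were higher and 14 lower at E18.5 than at E14.5, of 7382 tested (0.149% and 0.19%, 0.339% in all). Bmp2, a BMP ligand gene of this lineage, had 0 and 37.7 CPM at E18.5 and 275 to 363 CPM at E14.5. Its log2 difference was -3.85 ± 0.76 (adjusted p = 0.0321, edgeR). Bmp2 was at 252 and 105 CPM in the E17.5 pools, so the low value rests on the E18.5 pools of 5 and 10 cells.

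Lbx2 and Hsd3b1 did not pass the test for a linear slope. Lbx2, a homeobox gene, had 528, 447 and 407 CPM at E14.5, 731 and 623 CPM at E15.5, 677 and 473 CPM at E16.5, 830 and 718 CPM at E17.5, and 513 and 265 CPM at E18.5 (slope 0.05 ± 0.09 per day, adjusted p = 0.859, edgeR). Hsd3b1, a steroid dehydrogenase gene, was highest in the middle of the period, with 286 to 427 CPM at E14.5, 663 to 710.04 CPM at E15.5, 649 and 808 CPM at E16.5, 375 and 422 CPM at E17.5, and 485 and 18.9 CPM at E18.5 (slope -0.10 ± 0.18 per day, adjusted p = 0.843, edgeR). The E18.5 pools of Hsd3b1 were further apart than those of any other stage. Of the genes that defined the cells, Kitl had 1570.5 and 1786 CPM at E18.5 and 1055 to 1335 CPM at E14.5, and Wnt4 had 0 and 195 CPM at E18.5 and 252 to 429 CPM at E14.5.

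Across the gene lists, 0 of 12 tested WNT and R-spondin genes, 0 of 6 NOTCH genes, 0 of 13 TGF-beta, activin, BMP and AMH genes and 0 of 15 steroid and cholesterol genes were called for the slope. Only 0.531% of all genes tested were called, so 0 calls in lists this short do not set them apart from other genes. Of 11 cystatin and WFDC genes, Cst12 rose and Cst8 fell. Of the 19 G2 and M phase genes, 18 had negative slopes, with a median of -0.41 per day beside -0.01 over all genes, and 0 were called (lowest adjusted p = 0.0652, edgeR). At an unadjusted p under 0.05 edgeR gave 882 genes in all.

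Single cells varied widely within the lineage. Cst12 was at 0 in 10.0% of the 239 cells, the middle 50% of cells lay between 44.1 and 1283 CPM, and the highest cell had 4919 CPM. With each cell thinned to 33808 UMIs, the share of cells with a Cst12 UMI was 71.6% (exact binomial 95% interval 61.0 to 80.7) at E14.5, 91.8% (80.4 to 97.7) at E15.5, 97.9% (88.7 to 99.95) at E16.5, 88.2% (63.6 to 98.5) at E17.5 and 71.4% (41.9 to 91.6) at E18.5. The unthinned shares were 84.2%, 94.5%, 100%, 91.7% and 73.3%. Pregranulosa cells had a median of 96660 UMIs in the table. BVSC-gate cells had a thinned share of 27.3% and a median of 113500 UMIs, and stromal cells a thinned share of 73.9% and a median of 92260 UMIs. The intervals cover counting error only. The last stages rest on 17 and 14 cells, and because these shares went against the pool CPM no order was read from them. Cells of E14.5 to E16.5 carry a letter, C, D or P, that the labels do not explain. At E15.5 Cst12 was at 113 and 190.0 CPM in the P cells of the pair of libraries and at 850 to 1039 CPM in their C and D cells, but at E16.5 P cells had 1196 and 1254 CPM and C cells 440 and 355 CPM.

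The second comparison set the 11 pregranulosa pools against the 6 pools of earlier supporting cells chosen by the same limits. Of 6125 genes tested, 192 were higher and 193 lower in the pregranulosa pools (3.13% and 3.15%, 6.29% in all, edgeR). The markers Cst12 and Lbx2, with Lgr5 and Wfdc10, were higher, and most G2 and M phase genes were lower. The pregranulosa marker list did not move as a set. Of its 7 tested genes, the rule's genes aside, 3 differences were positive and 4 negative (median -0.26, beside 0.07 over all genes). Its called members were Cst12 and Lbx2, which were higher, and Inhbb, which was lower. Of the 192 higher genes, 26 were above the pregranulosa level in BVSC-gate cells of E17.5 and E18.5, and of the 193 lower genes, 87 were above the earlier supporting level in BVSC-gate cells of E11.5 to E13.5. The same shares among all 6125 genes tested were not counted, so these 2 counts do not set the called genes apart. All 6 earlier pools came from libraries that also held reporter-positive cells, and their germ marker sums were 254 to 747 CPM, against 35.2 to 1464 CPM in the pregranulosa pools. Within libraries that also held reporter-positive cells, 69 genes were higher and 38 lower, and 96 of these were among the 385. Germ marker sums at or above 25% of the stage median of BVSC-gate cells occurred in 9 earlier cells and 1 pregranulosa cell. The highest earlier cell of library 3 had 4492 CPM, beside a median of 4155 CPM in BVSC-gate cells of that library. Without these cells of high germ marker sums 371 genes were called, 345 of them among the 385. Libraries 1 and 2 of E11.5 also share the replicate name R1. With pools merged by that name, 380 genes were called, 317 of them among the 385.

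Cst12 averaged 870.1 ± 313 CPM in pregranulosa pools and 83.2 ± 109 CPM in earlier pools (SD, n = 11 and 6), a log2 difference of 3.28 ± 0.59 (adjusted p = 0.00104, edgeR). Even the highest earlier pool, at 232 CPM, was below the lowest pregranulosa pool. Lbx2 averaged 565 ± 167 CPM in pregranulosa pools and 108 ± 88.6 CPM in earlier pools (log2 difference 2.27 ± 0.41, adjusted p = 0.00121). Hsd3b1 averaged 472 ± 225 CPM in pregranulosa pools and 106 ± 157 CPM in earlier pools and did not pass the test (log2 difference 2.02 ± 0.74, adjusted p = 0.104). The 3 pools of E11.5 had no Hsd3b1 UMI, while the E12.5 pools had 199 and 385 CPM.

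Lgr5, the R-spondin receptor gene that marks cortical pregranulosa cells, averaged 218 ± 115 CPM in pregranulosa pools and 22.3 ± 14.545 CPM in earlier pools (log2 difference 3.12 ± 0.47, adjusted p = 0.000149, edgeR). Its 11 pregranulosa pools, 72.8 to 432 CPM, all exceeded the 6 earlier pools, 0 to 45.1 CPM. Gpr37, an orphan receptor gene of the same list, went the other way, with 41.4 ± 30.0 CPM in pregranulosa pools and 225 ± 158 CPM in earlier pools (-2.54 ± 0.47, adjusted p = 0.00138). Wfdc10, a WAP domain gene, averaged 299.9 ± 114 CPM in pregranulosa pools and 25.5 ± 31.9 CPM in earlier pools (3.53 ± 0.60, adjusted p = 0.000591).

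The genes with the largest differences were near 0 on one side. Svs6, a seminal vesicle secretory protein gene with close relatives beside it, Cyp2f2, a cytochrome P450 gene, Kcnb2, a potassium channel gene, and Gm33370 had no UMI in the 6 earlier pools. Against 3 UMIs over those pools, they were at least 122-fold, 77.7-fold, 71.6-fold and 47.6-fold higher in pregranulosa pools (adjusted p = 5.81e-05, 6.12e-05, 0.000554 and 0.00686, edgeR). Stromal pools reached 145 CPM of Svs6, 1.52 CPM of Cyp2f2, 56.9 CPM of Kcnb2 and 76.4 CPM of Gm33370. Crygb had 219.5 ± 191 CPM in pregranulosa pools and 1.15 ± 1.85 CPM in earlier pools. Calcrl, a receptor gene for CGRP and adrenomedullin, was higher by 6.34 ± 1.18 log2 units (adjusted p = 0.00142), but stromal pools also held 0 to 168 CPM. Tktl1, a transketolase-like gene, and Figla were higher too, and their levels in BVSC-gate cells of E17.5 and E18.5 were 723 and 1021 CPM.

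Among the largest falls, Klk1, a kallikrein gene, averaged 2.55 ± 4.34 CPM in pregranulosa pools and 88.6 ± 59.7 CPM in earlier pools (-5.00 ± 0.89, adjusted p = 0.00104, edgeR). Spp1, the osteopontin gene, averaged 15.4 ± 18.3 CPM in pregranulosa pools and 249.9 ± 226 CPM in earlier pools (-4.06 ± 0.69, adjusted p = 0.000569). Cyp26b1, whose enzyme degrades retinoic acid, had 0 to 28.6 CPM in pregranulosa pools and 0 to 520 CPM in earlier pools (-4.58 ± 1.16, adjusted p = 0.0159), where 1 library, number 2 of E11.5, gave the 520 CPM (without it -1.94, adjusted p = 0.432) and the others 0 to 32.5 CPM. Utf1, a pluripotency gene, and Rhox9 and Rhox6, paired X-linked homeobox genes of germ cells with similar sequence, also fell (-4.26 ± 0.58, -4.25 ± 0.87 and -3.87 ± 0.77). Earlier supporting cells held 198 CPM of Utf1, 199.6 CPM of Rhox9 and 157 CPM of Rhox6, and BVSC-gate cells of E11.5 to E13.5 held 1160, 1409 and 1196 CPM. The levels of the earlier supporting cells are pooled and include the 9 cells with high germ marker sums. Nup62cl and Sphkap completed the 8 (-4.08 ± 0.73 and -3.83 ± 1.09).

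Most genes of the G2 and M phases of cell division were lower. Of 19 G2 and M phase genes tested, 16 were lower in pregranulosa pools and all 19 differences were negative, with a median log2 difference of -2.26 beside 0.07 over all genes. Without library 7 of E11.5, 5 of the 16 passed (Cenpf, Cenpa, Ube2c, Kif2c and Cdc20), and within libraries that also held reporter-positive cells 4 did (Cenpa, Aurka, Ube2c and Kif2c). Ccna2, the cyclin A2 gene, averaged 35.5 ± 19.5 CPM in pregranulosa pools and 175 ± 168 CPM in earlier pools (-2.38 ± 0.52, adjusted p = 0.00561, edgeR). Mki67, the Ki-67 gene, averaged 30.8 ± 21.8 CPM in pregranulosa pools and 141 ± 128 CPM in earlier pools (-2.26 ± 0.59, adjusted p = 0.0187), and Cdc20, an activator of the anaphase-promoting complex, 29.3 ± 30.7 CPM in pregranulosa pools and 214 ± 207 CPM in earlier pools (-2.93 ± 0.60, adjusted p = 0.00358). The ranges of the earlier pools were wide, 0 to 298 CPM for Mki67, so single pools overlapped. Of 17 S phase genes, 3 fell, Tyms, Dut and Gins1, and the median was -0.84, but 0 of the 3 passed within libraries that also held reporter-positive cells. BVSC-gate cells of E11.5 to E13.5 held 605 CPM of Ccna2 and 453 CPM of Mki67. Cdkn1b, the gene of the cell cycle inhibitor p27, was higher in pregranulosa pools, at 396 ± 86.5 CPM, than in earlier pools, at 231 ± 57.2 CPM (0.71 ± 0.20, adjusted p = 0.0333). Ccnd2, the cyclin D2 gene, was higher as well, at 1189 ± 243 CPM in pregranulosa pools and 615 ± 230 CPM in earlier pools (0.88 ± 0.20, adjusted p = 0.00661). For comparison, the stromal pools held 379 to 1208 CPM of Mki67.

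**Figure D3:**
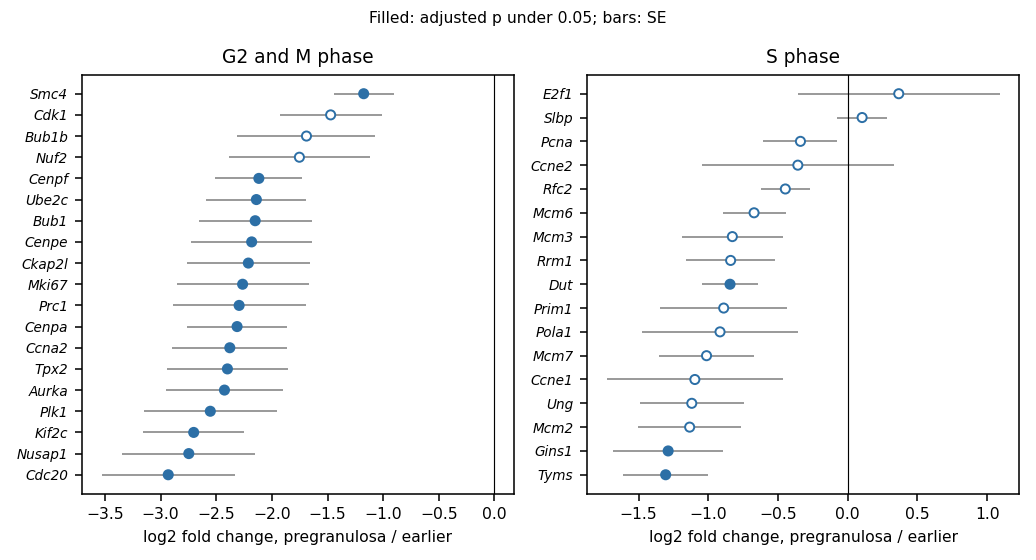
Log2 fold change of pregranulosa over earlier supporting pools (points) with its standard error (bars) for the tested G2 and M phase and S phase genes. Filled points passed an adjusted p under 0.05: 16 of 19 G2 and M phase genes and 3 of 17 S phase genes, all of them negative.

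Other lists changed in part. Of 31 cytosolic ribosomal protein genes, 15 were lower in pregranulosa pools and all 31 differences were negative (median -0.42). Of these 15, 5 to 8 passed without library 7, 9, 13, 15, 19, 21 or 23, left out singly, and 0 within libraries that also held reporter-positive cells. Rpl18 averaged 1508 ± 189 CPM in pregranulosa pools and 2283 ± 209 CPM in earlier pools (-0.67 ± 0.11, adjusted p = 0.000569, edgeR). Of 13 glycolysis genes, Ldhb, Hk1 and Gapdh fell, of which 1 passed without library 2 or library 7 and 0 within libraries that also held reporter-positive cells. Of 7 immediate early genes, which respond to dissociation, Zfp36, Btg2 and Egr2 were higher, and the 7 together summed to 2503 to 8436 CPM in pregranulosa pools and 1965 to 5383 CPM in earlier pools. Their part in the other differences was not tested. Lhx9, a transcription factor gene of the early gonad, averaged 391.6 ± 138 CPM in pregranulosa pools and 633 ± 166 CPM in earlier pools (-0.79 ± 0.20, adjusted p = 0.0152). Gja1, the connexin 43 gene of granulosa gap junctions, averaged 222 ± 84.9 CPM in pregranulosa pools and 401 ± 108 CPM in earlier pools (-0.96 ± 0.25, adjusted p = 0.0166). Inhbb, an activin and inhibin subunit gene, averaged 59.0 ± 38.0 CPM in pregranulosa pools and 172 ± 192 CPM in earlier pools (-1.60 ± 0.48, adjusted p = 0.044), where library 2 held 561 CPM. Without library 2 its difference was -0.77 (adjusted p = 0.381). Nr2f2, a stromal marker, averaged 83.7 ± 56.0 CPM in pregranulosa pools and 243 ± 113 CPM in earlier pools (-1.62 ± 0.42, adjusted p = 0.0169). Kdr, an endothelial marker, averaged 50.3 ± 31.8 CPM in pregranulosa pools and 5.27 ± 8.18 CPM in earlier pools (3.10 ± 0.80, adjusted p = 0.0169). The germ markers Sycp1 and Tex101 were higher too (4.60 ± 1.03 and 3.61 ± 0.97, adjusted p = 0.00681 and 0.0222). Among imprinted genes Peg3 was lower and Sgce higher, and 0 of 15 steroid and cholesterol genes and 0 of 12 basement membrane genes were called (lowest adjusted p = 0.104 and 0.0566). Over all genes 6.29% were called, so 0 calls in these 2 short lists do not set them apart.

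**Figure D4:**
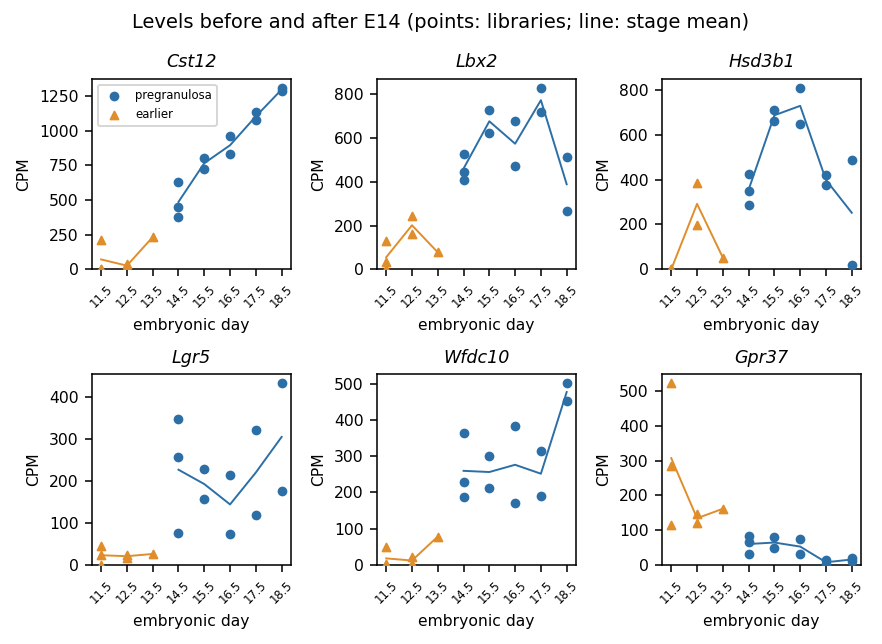
CPM per pool (points, 1 per library) against embryonic day for pregranulosa pools (circles) and earlier supporting pools (triangles), with the stage mean as a line. Lgr5 and Wfdc10 are higher in all 11 pregranulosa pools than in all 6 earlier pools, and Gpr37 is lower in all 11.

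The third comparison asked whether slopes in pregranulosa pools differed from those in stromal pools. The 6 stromal pools, of libraries 13, 15, 17, 21, 23 and 25, held 5 to 10 cells each and ended at E17.5. All 11 pregranulosa pools entered, and those of libraries 4, 6, 19, 24 and 26 had no stromal pool beside them. The pregranulosa slope thus ran to E18.5 and over more libraries than the stromal slope. Of 7110 genes tested, 1 had a higher slope in pregranulosa cells and 19 a lower one (0.0141% and 0.267%, 0.281% in all, edgeR). Tnik, a kinase gene of the WNT pathway, kept 54.1 to 176 CPM in pregranulosa pools and in stromal pools had 0 to 4.56 CPM after E14.5 but 45.5 and 39.3 CPM at E14.5 (slope difference 2.21 ± 0.47 per day, adjusted p = 0.0282). Dync1i1, a dynein subunit gene, had 330.4 and 129.8 CPM at E17.5 in pregranulosa pools and 145 CPM in the single stromal pool of that stage, while the earlier stromal pools had 0 to 11.6 CPM (-3.48 ± 0.53 per day, adjusted p = 0.00303).

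Angptl1, an angiopoietin-like gene, showed the same form, with 30.4 and 1.803 CPM at E17.5 in pregranulosa pools and 188 CPM in the stromal pool of that stage (-4.10 ± 0.76 per day, adjusted p = 0.0112, edgeR). Egfl6 (-2.28 ± 0.51, adjusted p = 0.0467), Sdsl (-1.99 ± 0.35, adjusted p = 0.00937), and 2200002J24Rik (-1.93 ± 0.41, adjusted p = 0.0282) followed. Each of these 5 lower slopes came with a stromal level at E17.5 above that at E14.5, and the E17.5 stromal value is 1 pool of 5 cells, library 25. Without library 25, 11 genes were called, 4 of them among the 20, and of the 6 genes named here only Egfl6 passed (-3.04 ± 0.53 per day, adjusted p = 0.0123). The marker Lbx2, not called in the main fit (-0.59 ± 0.42), passed without library 25 (-1.23 ± 0.24 per day, adjusted p = 0.0263, edgeR). The stromal pools came from the same libraries as pregranulosa pools. With library as a block, 15 genes were called, 7 of them among the 20. Of the 6 genes named here only Angptl1 passed in that fit (adjusted p = 0.0349), and the adjusted p was 0.0519 for Dync1i1, 0.211 for Egfl6 and 2200002J24Rik, 0.287 for Sdsl and 0.400 for Tnik (edgeR). Cst12 did not pass for a difference in slope (-0.43 ± 0.18 per day, adjusted p = 0.415): in stromal pools it had 222 CPM at E17.5 and 21.3 to 80.8 CPM at E14.5.

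**Figure D5:**
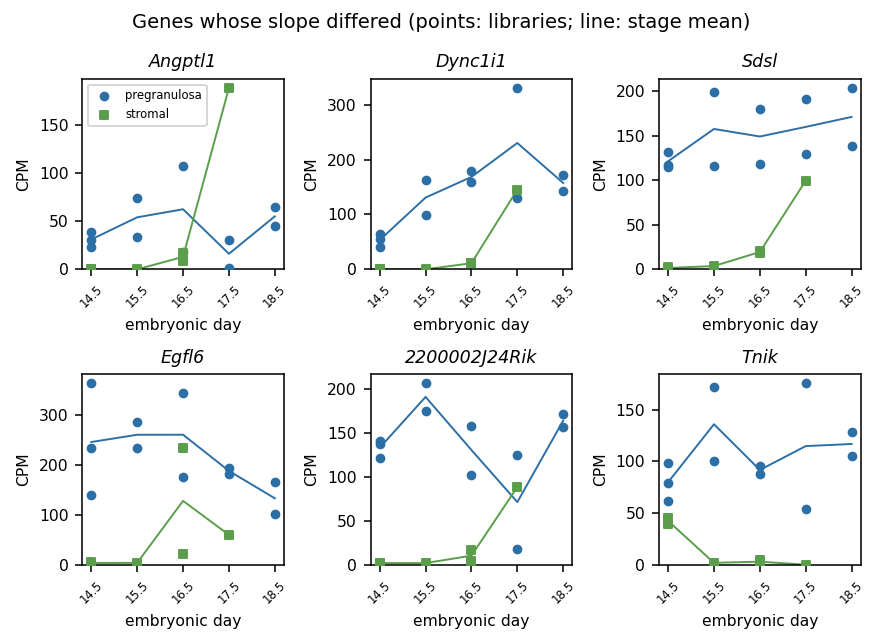
CPM per pool (points, 1 per library) against embryonic day in pregranulosa (circles) and stromal (squares) pools for genes whose slope differed in the fit with no library block, with stage means as lines. For Angptl1, Dync1i1, Sdsl and 2200002J24Rik the highest stromal value is the single E17.5 pool.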

How the data were processed

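UMI counts per gene and cell are used as deposited by the authors. The submitters' processing notes name STAR, featureCounts, Subread, UMI-tools and CASAVA 1.8, with build mm10, but neither settings nor strand handling. The last line of the counts read here was incomplete, which left 16344 complete genes holding a median of 51.4% (43.1% to 53.0%) of a pregranulosa cell's deposited UMI total. CPM was taken over those genes. Stage, library, gate and the names R1 and R2 came from the deposited cell table. Doublets were not called. Cells were picked singly and no 2 cells had identical counts, but neither is a test for doublets. Free germ cell RNA and doublets were not told apart.

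Within each class, the counts of a library's cells were added up where it held 5 cells or more, and these pools were tested with edgeR 4.0.16 (R 4.3.3): quasi-likelihood, TMM, filterByExpr, Benjamini-Hochberg adjustment over all genes tested, threshold 0.05. Standard errors are the absolute log2 change over the square root of F. DESeq2 1.42.0, other scalings, filters, limits and libraries left out were alternatives. Those by gate make-up, title prefix and germ marker sum were chosen after seeing the data. Scripts were tested on simulated counts. Genes named for the slope are the 10 largest called changes each way with a mean of at least 20 CPM, for earlier cells 8 and for the slope difference 5, plus markers and called list members. One gene that the rule names is not reported here. Names matched GENCODE for 16252 genes and an older symbol for 55. The members and the gene lists were chosen with earlier results of these data known. Intervals cover counting error only.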

Additional observations from a re-analysis of the deposited data

Results flagged for a closer look

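Values far from the other pools of their group were looked for among 32 groups of 6 pools, and 13 were found. The genes were those already named by the tests above or as markers, so no rate of chance applies to this count. The 6 earlier pools span 3 stages, so stage can set such gaps. Among earlier pools, library 2 of E11.5 (6 cells) was high for Cyp26b1 (519.7 CPM, next pool 32.5) and Inhbb (561 CPM, next 126). Library 3, the single pool of E13.5, was high for Figla (2.13 CPM, others 0), Tktl1 (0.53 CPM, others 0), Sycp1 (31.4 CPM, next 2.63) and Tex101 (19.7 CPM, next 1.61). Library 9 of E12.5 was high for Kdr (21.1 CPM, next 6.93).

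Among stromal pools, library 25 of E17.5 (5 cells) was high for Angptl1 (188 CPM, next 16.7), Dync1i1 (145 CPM, next 11.6), Sdsl (99.7 CPM, next 20.7), 2200002J24Rik (88.3 CPM, next 16.7) and Hsd3b1 (561 CPM, next 113), and library 21 of E16.5 for Egfl6 (234 CPM, next 59.8).

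The slope of pregranulosa cells differed from that of stromal cells, by the interaction test, for Tnik (2.21 log2 units per day), Angptl1 (-4.10), Dync1i1 (-3.48), Egfl6 (-2.28), Sdsl (-1.99) and 2200002J24Rik (-1.93). With library as a block, of these 6 only Angptl1 passed (adjusted p = 0.0349, edgeR). The values of library 25 stand beside these differences, and its part in them was not tested beyond leaving it out.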

How the results depend on the processing

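The slope from E14.5 to E18.5 called 35 genes, and 261 with DESeq2, 127 with no filter on low counts, 65 under stricter membership limits (187 cells) and 14 with pools merged by R1 and R2. In alternatives chosen after seeing the data it called 5 within libraries of Negative-gate cells alone, 0 within libraries that also hold reporter-positive cells (100 genes at an unadjusted p under 0.05) and 65 within libraries whose title starts with s05. Without E14.5 it called 0 (471 unadjusted). Leaving out each library gave 2 to 39: without library 13 or library 15, both of E14.5, the 2 calls were Cst12 and Cited2. Cst12 was called in 24 of 27 settings and kept its sign in all 27, and Cited2 in 23 of 27. Leaving out the cells with the highest germ marker sums (1 pregranulosa cell) called 43 genes.

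E18.5 against E14.5 called 25 genes, and 426 with DESeq2, 169 with no filter, 181 with pools of at least 10 cells, 7 with merged pools, 1137 under stricter limits, 1 within libraries that also hold reporter-positive cells and 174 within s05 titles; libraries left out gave 1 to 371. Upper-quartile scaling moved the median of all genes from -0.17 to -0.25 log2 units there. Pregranulosa against earlier cells called 385, and 665 with DESeq2, 621 with no filter and 215 under stricter limits. That comparison called 107 within libraries that also hold reporter-positive cells. Without the cells with the highest germ marker sums (9 earlier and 1 pregranulosa) it called 371, and libraries left out gave 235 to 413. The slope difference called 20, and 122 with DESeq2, 88 with no filter, 2 with pools of at least 3 cells, 12 with thinned pools, 9 with merged pools and 0 within Negative-gate libraries alone; libraries left out gave 7 to 35, the lowest without library 15. It could not be fitted with pools of at least 10 cells or under stricter limits. The cause of these shifts was not tested.

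Over deposited UMI totals the pregranulosa means were 447 CPM for Cst12, 290.5 for Lbx2 and 243 for Hsd3b1, in place of 870.1, 565 and 472, since the denominator then holds all genes. Changes not called in the main fit that turned sign in an alternative were the slope of Lbx2 (-0.067 within libraries that also hold reporter-positive cells, -0.14 without E14.5, and -0.00020 to 0.154 with libraries left out in turn, negative without library 24) and of Hsd3b1 (0.58 within Negative-gate libraries, 0.18 without E18.5, and -0.194 to 0.098 with libraries left out, positive without library 26), their E18.5 differences with libraries left out (-0.70 to 0.16 for Lbx2 and -4.12 to 0.47 for Hsd3b1, positive without library 26), and the slope differences of Cst12 (0.22 with pools of at least 3 cells), Lbx2 (0.062 with pools of at least 3 cells, 0.22 with the library block) and Hsd3b1 (0.28 within Negative-gate libraries). The -4.12 of Hsd3b1 came without library 6, which left library 26 alone at E18.5. The slope difference of Lbx2 was called without library 25 (-1.23 per day). With library as a replicate block the slope difference called 15 genes, 7 of them among the 20. With R1 and R2 as a replicate block the slope called 36 genes, 30 of them among the 35. The names did not pair the libraries: over 10 pairs of stages, the R1 minus R2 differences correlated at -0.04 to 0.06. Depth limits the E17.5 and E18.5 pools most, which hold 5 to 13 cells.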
